A study of Mus musculus with 10 samples.

Results

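The tripartite motif (Trim) genes were taken as the protein-coding genes of the GENCODE M21 mouse annotation whose symbol is Trim followed by a number and at most 1 further letter. This rule gave 68 of the 55471 genes in the count tables. Genes that encode TRIM proteins under other symbols, such as Pml and Mid1, were not members and were described apart from them. The libraries held total RNA from wild-type primary mouse microglia, the resident macrophages of the brain, kept in DMEM with 10% FBS and antibiotics. Control gapmers had been given to the cells of 5 libraries, and gapmers against 3222401L13Rik, a long noncoding RNA, to the cells of the other 5. Gapmers are short antisense oligonucleotides that lead RNase H to cut the RNA they pair with. The study asked what changes in microglia when this RNA is targeted. Whether the replicates of a group were separate cultures or separate animals is not stated in the labels. The p-values below therefore cover no more than the variation among these libraries, which may be technical.

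TRIM proteins carry a RING domain, 1 or more B-box domains and a coiled coil, and most act as E3 ubiquitin ligases, the enzymes that choose which protein is tagged with ubiquitin. The domain after the coiled coil sets the partner, such as a PRY-SPRY domain in many antiviral members, NHL repeats, a COS box that binds microtubules, or a PHD finger with a bromodomain in chromatin regulators. In macrophages several members tune the sensing of foreign nucleic acids and are induced by interferon. Rodents carry duplicated relatives of the primate restriction factor TRIM5 side by side, which in the mouse are the Trim5, Trim12 and Trim30 groups on chromosome 7.

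The start regions of the chromosome 7 genes are shown first, because some genes that share part of their start region were read at different levels. RefSeq (GRCm38.p6) held a promoter entry for 53 of the 68 members, with 67 start sites in all, each 300 bases long from 250 bases before the start to 50 bases from it. The letters GAAA, then any 2 bases, then GAAA form the core of the interferon-stimulated response element, a sequence bound by interferon-activated factors. On the opposite strand they read TTTC, any 2 bases, TTTC, and both strands were searched, for this motif only. The letters stood in 3.44% of all 32851 promoters and in 3.99% of the 27025 genes with a promoter entry, against 9 of the 53 members (17%). In the chromosome 7 cluster they stood in 6 of 10 genes. Each line below gives 80 bases before and 20 bases from an annotated start, read in the direction of transcription, and capitals mark the motif letters.
Trim12a (chr7:104315476-104315575, minus strand): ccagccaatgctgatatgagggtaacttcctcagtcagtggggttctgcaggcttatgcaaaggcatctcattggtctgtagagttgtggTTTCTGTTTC
Trim5 (chr7:104288087-104288186, minus strand): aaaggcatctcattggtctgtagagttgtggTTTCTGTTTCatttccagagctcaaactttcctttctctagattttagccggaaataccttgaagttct
Trim12c (chr7:104353330-104353429, minus strand): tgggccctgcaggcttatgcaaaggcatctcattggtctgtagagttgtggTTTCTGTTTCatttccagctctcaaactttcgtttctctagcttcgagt
Trim30a (chr7:104465174-104465273, minus strand): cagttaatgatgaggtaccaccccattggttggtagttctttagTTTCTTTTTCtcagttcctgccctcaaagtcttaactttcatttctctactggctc
Trim30d (chr7:104507830-104507929, minus strand): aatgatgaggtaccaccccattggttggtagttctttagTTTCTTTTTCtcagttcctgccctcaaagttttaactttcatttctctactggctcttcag
Trim30c (chr7:104400759-104400858, minus strand): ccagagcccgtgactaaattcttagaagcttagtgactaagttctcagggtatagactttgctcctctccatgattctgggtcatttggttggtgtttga
Trim34a (chr7:104244377-104244476, plus strand): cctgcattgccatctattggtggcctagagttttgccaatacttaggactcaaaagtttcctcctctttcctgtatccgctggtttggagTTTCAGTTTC
Trim34b (chr7:104329391-104329490, plus strand): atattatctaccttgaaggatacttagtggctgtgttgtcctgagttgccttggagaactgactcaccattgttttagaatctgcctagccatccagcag
The promoters of Trim5 and Trim12a shared a run of 241 identical bases of 300, so that 1 stretch of sequence was annotated with starts at different places. Those of Trim5 and Trim12c, and those of Trim12a and Trim12c, each shared a run of 71 bases. Trim30a and Trim30d shared 118 bases, whereas Trim30a and Trim30c shared 32 and Trim34a and Trim34b shared 11. Trim6, Trim30b, Trim30c and Trim34b held no match in these windows, and the RefSeq start of Trim30b differed from the gene start in GENCODE. Outside the cluster the letters stood in the promoters of Trim21, Trim26 and Trim2. A match is a description of letters and not a measured binding site.

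The coding sequences of the cluster are also close, which bears on how surely a read can be given to 1 gene. The first 60 coding bases of the main GENCODE M21 transcripts are shown, with capitals at the positions that differ from Trim12a.
Trim12a: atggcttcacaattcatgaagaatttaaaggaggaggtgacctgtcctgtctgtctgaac
Trim5: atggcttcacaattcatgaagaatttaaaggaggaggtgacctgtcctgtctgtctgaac
Trim12c: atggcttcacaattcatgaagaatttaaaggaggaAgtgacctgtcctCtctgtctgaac
Trim30a: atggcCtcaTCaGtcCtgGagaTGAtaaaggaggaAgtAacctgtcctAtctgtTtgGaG
Trim30d: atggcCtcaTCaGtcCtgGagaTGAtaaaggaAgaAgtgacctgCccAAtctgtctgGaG
Trim5 and Trim12a were identical over these bases, Trim12c differed from them at 2 positions, Trim30a at 15 and Trim30d at 16. Over aligned coding bases Trim34a and Trim34b were 98.8% identical, Trim5 and Trim12c 96.6%, Trim5 and Trim12a 97.1%, and Trim30a and Trim30d 90.2%. The annotated coding sequence of Trim12a ended early, at 891 bases against 1491 for Trim5 and for Trim12c, and that of Trim30b had 609 bases. Stretches of 50 bases were also compared between the transcripts of all genes. Such stretches were shared with another gene for 59.7% of Trim34a, 56.8% of Trim34b, 36.6% of Trim5, 33.7% of Trim12c and 10.5% of Trim12a, but for 7.49% of Trim30d and 5.98% of Trim30a. How the deposited counts treated reads that match more than 1 gene is not given in the sources used here. The levels of Trim34a, Trim34b, Trim5 and Trim12c are therefore uncertain.

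Library totals ran from 4321316 to 6636082 reads, and the members took 115871 reads in all, 0.205% of the total. The targeted gene 3222401L13Rik held 30, 29, 28, 33 and 34 reads in the control group, in the order of replicates 1 to 5, and 22, 38, 24, 33 and 29 in the other group. Its log2 fold change of -0.17 (SE 0.23) did not pass edgeR's quasi-likelihood test (adjusted p = 0.541), and the groups overlapped. The targeted RNA therefore did not separate the labels, and the second group is called the libraries labelled knockdown throughout. This check is limited, since the background defined below would give 48% of the target's reads. After background subtraction its log2 fold change was 0.320 (edgeR adjusted p = 0.615). Of 10 microglia marker genes, 9 were well above the background defined next, with a summed level of 2836 to 3012 reads per 1000000 reads of the library (CPM) in the control libraries and 2991 to 3253 CPM in those labelled knockdown. None of the 4 lymphocyte, 7 neuron or 6 fibroblast and mural cell markers was well above background, while 4 of 7 astrocyte, 2 of 7 oligodendrocyte-lineage, 3 of 7 border macrophage and monocyte and 1 of 5 endothelial markers were. The summed neuron markers ran from 42.9 to 80.1 CPM in the control libraries and from 20.5 to 35.2 CPM in the libraries labelled knockdown. Fibroblast and mural cell markers (30.3 to 47.4 against 11.5 to 24.1 CPM) and oligodendrocyte-lineage markers (106 to 116 against 89.95 to 101 CPM) were also lower without overlap. Lymphocyte markers (4.14 to 8.45 against 1.24 to 4.65 CPM) overlapped, as did those of astrocytes, endothelium, microglia, and border macrophages and monocytes. The part of these cells in the results below was not tested. In bulk RNA, fewer cells of a type and less RNA per cell cannot be told apart. Near background were 4 of 7 neuron, 4 of 6 fibroblast and mural cell, 4 of 4 lymphocyte and 2 of 7 oligodendrocyte-lineage markers. The background density defined next was 2.33 times higher in the control libraries, and its part in these sums was not tested.

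Reads on genes that microglia do not use gave each library a background. The 1135 olfactory receptor genes, which serve nasal sensory neurons, had a density of 0.599 ± 0.147 for controls and 0.257 ± 0.0674 for the knockdown label (SD, n = 5 each), in reads per kilobase of exon per 1000000 reads (RPKM). The ratio was 2.33 and the groups did not overlap (p = 0.00794 by an exact two-sided permutation test, which cannot go lower with 5 against 5). This density, multiplied by a gene's exon length and the library total and summed over the 10 libraries, gave the reads that background alone would place on the gene. A gene was called well above background where these made up under 20% of its reads, near background where they made up at least 50%, and between otherwise. The density also differed between gene classes, being 1.27 ± 0.277 for 53 keratin genes and 0.385 ± 0.101 for 333 vomeronasal receptor genes in the control libraries (SD, n = 5), so the classes are a working scale and not a test of expression.

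Of the 68 members, 31 were well above background, 19 lay between and 18 were near background. These were 45.6%, 27.9% and 26.5% of the family, against 42.1%, 21.5% and 36.4% of the 21974 protein-coding genes. With keratin genes as the background 20 members were well above and 34 near it, and with vomeronasal receptor genes only 4 were near it. Mean levels in RPKM, on library totals, ran from 2.16 to 56.7 among the members well above background, from 0.847 to 2.05 among those between, and from 0.00801 to 0.815 among those near background. The members formed a continuous order across the thresholds. Trim62 (16.9%), Trim68 (18.5%) and Trim16 (19%) lay just inside the 20% background share, and Trim6 (20.1%), Trim36 (21.2%) and Trim29 (23%) just outside it. At 50% the neighbours were Trim30b (44.3%), Trim2 (48%) and Trim66 (49.3%) on 1 side and Trim67 (52.1%), Trim60 (53.6%) and Trim17 (54.1%) on the other.

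**Figure D1:**
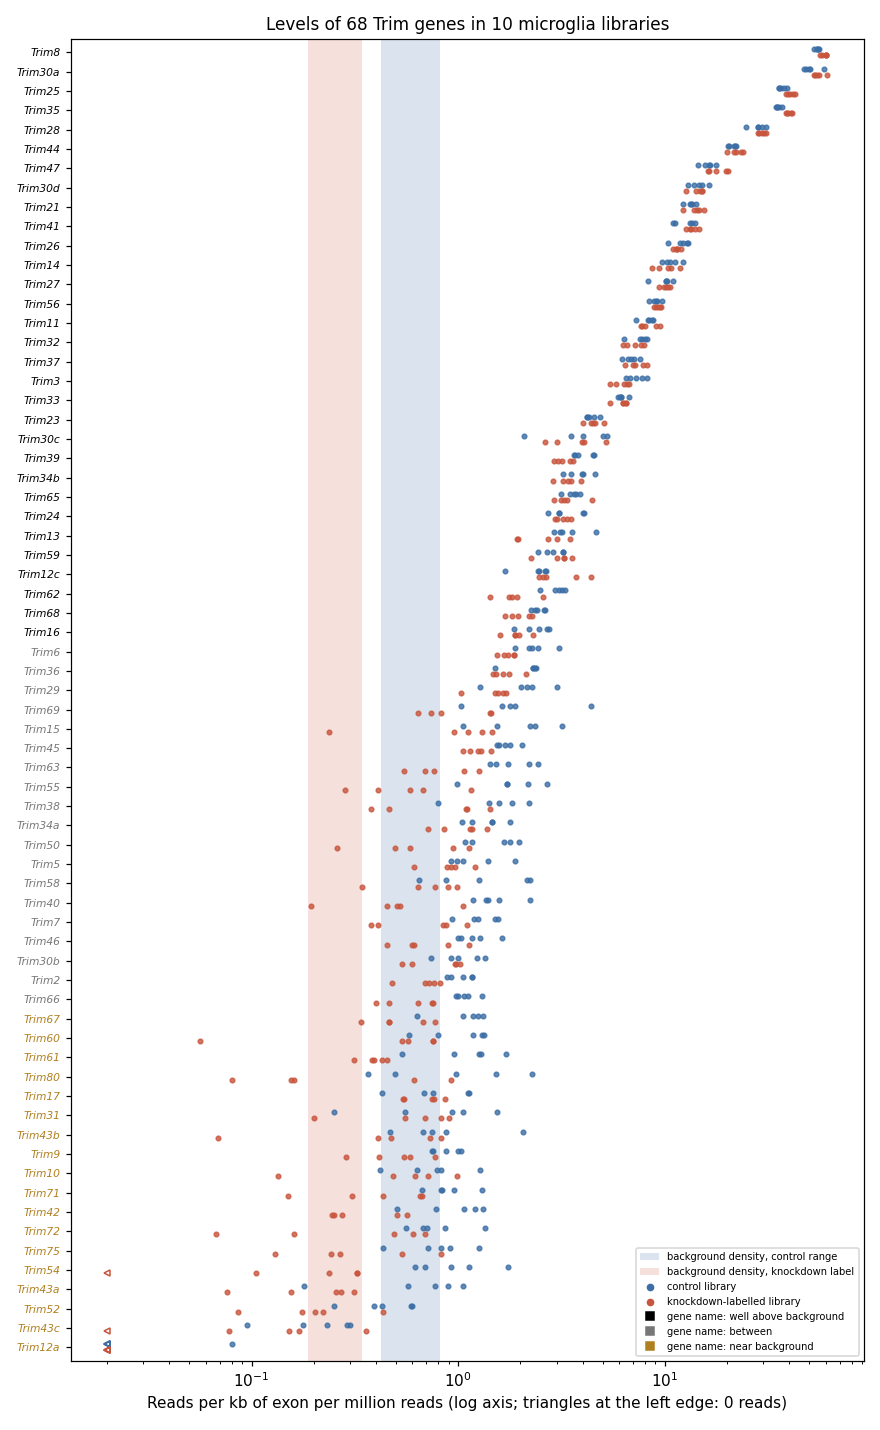
Level of each of the 68 Trim genes in each of the 10 libraries, in RPKM on a log axis, ordered by mean. Blue points are control libraries, red points libraries labelled knockdown, shaded bands the range of the background density in each group, and the colour of a gene's name its class. The members named in black reach from 2.16 to 56.7 in their mean. Those named in brown have means from 0.00801 to 0.815, with points inside, above and below the bands.

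The 5 members with the most reads held 46.5% of all reads of the family. Trim8, a regulator of cytokine and NF-kB signalling, had the highest level, with 54.5, 52.5, 54.7, 55.7 and 55.3 RPKM in control replicates 1 to 5 and 57.3, 56.4, 60, 60.5 and 60.5 RPKM in the replicates labelled knockdown. Trim30a, which restrains Toll-like receptor signalling in mouse macrophages, stood at 50.6, 49.7, 48.4, 46.9 and 59 RPKM and at 61.2, 53.3, 52.5, 54.4 and 55.8 RPKM in the same order. The ranges of Trim8 and Trim30a overlapped, so their order is not resolved. Trim25, the ubiquitin ligase that acts on the RNA sensor RIG-I, had a mean of 38.7 RPKM (35.7 to 42.6 over the 10 libraries), and Trim35, a ligase linked to antiviral signalling and cell death, had a mean of 37.5 RPKM (34.3 to 41.2). Their ranges also overlapped each other and lay below every library of Trim8 and Trim30a. Trim28, the corepressor of KRAB zinc finger proteins, followed with a mean of 28.8 RPKM (24.8 to 30.9), and Trim44, a deubiquitinase-like member without a RING domain, with 21.7 RPKM (20 to 23.8). These did not overlap each other or Trim35. Trim47 (17.1 RPKM), Trim30d (14.5 RPKM), Trim21 (13.7 RPKM) and Trim41 (13.1 RPKM) completed the first 10, with neighbouring ranges that overlapped.

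The classes differed between the lists of members, most of which were made by known role. Of 10 signalling and antiviral regulators outside the chromosome 7 cluster, 9 were well above background and they held 39.1% of the family's reads. The exception was Trim38, a negative regulator of Toll-like receptor and cytokine signalling, at 1.56 ± 0.52 RPKM in control libraries and 0.893 ± 0.453 RPKM in those labelled knockdown (SD, n = 5 each), where background made up 34.6% of its reads. Besides Trim8 and Trim25 the group held Trim21, the cytosolic antibody receptor, and Trim56, which acts in the STING and Toll-like receptor 3 pathways, with a mean of 9.15 RPKM. Trim14, an adaptor in mitochondrial antiviral signalling, had a mean of 10.5 RPKM, but 31.3% of its exon bases overlapped the exons of Nans on the opposite strand, so that part of its reads may belong to Nans. Of the 11 other broadly expressed members, 10 were well above background, the list as a whole holding 26.1% of reads, and Trim45 lay between. This list was named for broad expression and not for a role. The lists were also made with earlier results of these data known, so its high levels are not a result about a role.

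Chromatin regulators of the TIF1 group (PHD finger and bromodomain) held 10.6% of reads. Trim28 (28.8 RPKM), Trim33 (6.19 RPKM), which acts on SMAD signalling, and Trim24 (3.3 RPKM), a nuclear receptor cofactor, were well above background. Trim66, best known from testis, was at 1.09 ± 0.129 RPKM in the control libraries and 0.6 ± 0.164 RPKM in those labelled knockdown (SD, n = 5 each), with a background share of 49.3%. Among the NHL-repeat members, Trim32 (7.34 RPKM), a ligase whose loss causes muscular dystrophy, and Trim3 (6.73 RPKM), a brain-enriched member, were well above background. Trim2, known from neurons, had a mean of 0.866 RPKM and lay between, and Trim71, a regulator of early development, had 0.681 RPKM and was near background. Both membrane-anchored members, Trim13 (3.05 RPKM), which takes part in degradation at the endoplasmic reticulum, and Trim59 (2.97 RPKM), were well above background.

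Groups known from neurons and muscle held no member well above background. Of the COS-box genes, which act on microtubules, Trim36 (1.93 RPKM) and Trim46 (0.977 RPKM) lay between, and Trim9 (0.7 RPKM) and Trim67 (0.815 RPKM) were near background. The muscle ligases Trim63 (MuRF1, 1.37 RPKM) and Trim55 (MuRF2, 1.24 RPKM) lay between, while Trim54 (MuRF3, 0.608 RPKM) and the membrane repair protein Trim72 (0.616 RPKM) were near background. Of the 19 remaining members 0 were well above background, 7 lay between and 12 were near it, among them Trim10, Trim31, Trim42, Trim52, Trim60, Trim61, Trim75, Trim80 and the Trim43 genes. Together these 19 held 2.13% of the family's reads. They are the members that no other list took, so their low levels may reflect how the lists were made.

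The chromosome 7 cluster spanned 289.1 kb, from 104218793 to 104507849 (GRCm38), and held 10 members, 3 on the plus and 7 on the minus strand. From left to right they were Trim6, Trim34a, Trim5, Trim12a, Trim34b, Trim12c, Trim30b, Trim30c, Trim30a and Trim30d. Another 6 members lie elsewhere on chromosome 7. In the cluster 5 members were well above background, 4 lay between and 1 was near it, and the cluster held 15.7% of the family's reads. Trim30a (104409025 to 104465193, minus strand) alone took 68.4% of the cluster's reads. Its mean was 3.67 times that of Trim30d (104470014 to 104507849, minus strand), the gene beside it, whose promoter shares 118 bases with its own, and 19.2 times that of Trim12c (104338754 to 104353362, minus strand), per kilobase. No library of Trim30d came near any library of Trim30a.

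The remaining copies were read at low levels. Trim30c (104382065 to 104400837, minus strand) had 3.88 RPKM, with control replicates 1 to 5 at 3.51, 5.26, 5.04, 4.03 and 2.07 RPKM, and its levels overlapped those of Trim34b (3.62 RPKM) and Trim12c (2.77 RPKM). Trim6 (2.05 RPKM), known as a maker of free ubiquitin chains in interferon signalling, Trim34a (1.21 RPKM), Trim5 (1.08 RPKM) and Trim30b (0.933 RPKM) lay between. Trim34b and Trim34a share most of their coding sequence yet differed in every library, with Trim34b at 2.86 to 4.57 RPKM and Trim34a at 0.717 to 1.78 RPKM over the 10 libraries. Reads in the stretches common to both could have been counted for either or neither.

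Trim12a (104299894 to 104315466, minus strand) was the lowest of the 68 members. It had 2 reads, both in control replicate 2, and 0 reads in the other 9 libraries. At its exon length of 5781 bases the background density alone corresponded to 132 reads, 86.8 in the control libraries and 45.4 in those labelled knockdown. It was thus below the background of genes that microglia do not use, in every library. Its start region matched Trim5 over 241 bases, and 10.5% of its 50-base stretches were shared with other annotated transcripts. Another 2 members were below background, Trim43c with 20 reads against 45.5, where 58.6% of stretches were shared, and Trim52 with 64 reads against 80.5, where 0.0865% were. The cause of these low counts was not tested.

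**Figure D2:**
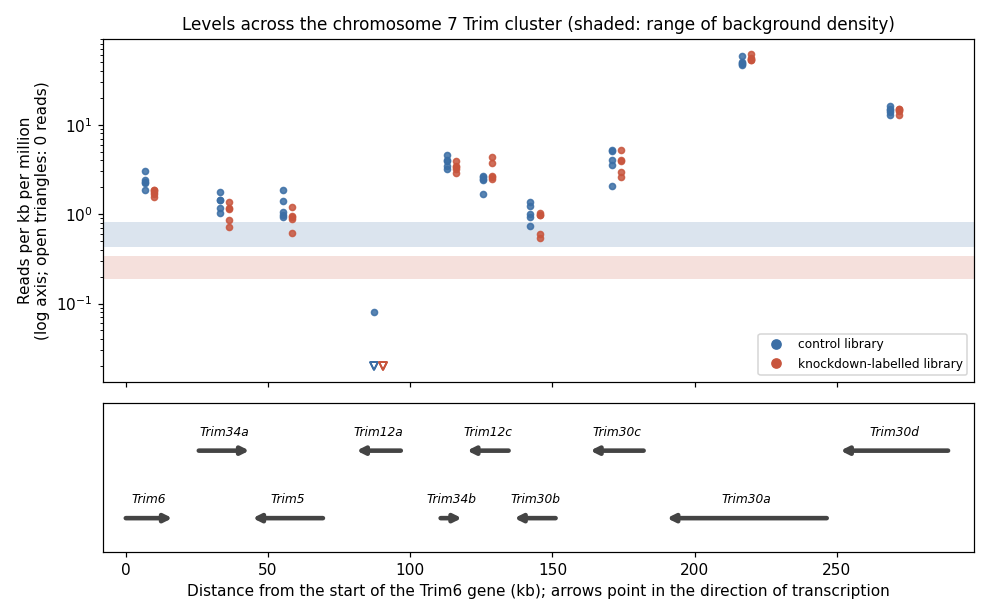
Levels of the 10 chromosome 7 cluster members in RPKM (log axis, top) above a map of the genes by distance from the start of Trim6 (bottom), with blue points for control libraries, red points for libraries labelled knockdown, and bands for the range of the background density. Trim30a and Trim30d stand above all others, and Trim12a lies under the bands at 0 or 0.0801. Of the rest, Trim30c, Trim34b and Trim12c have means from 2.77 to 3.88. Trim6, Trim34a, Trim5 and Trim30b have means from 0.933 to 2.05.

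In the comparison between the groups, the members called higher in the libraries labelled knockdown were all well above background, and all but 1 of the members called lower were not. Of the 68 members 57 passed the filter on low counts and were tested (edgeR quasi-likelihood test over 19263 genes, Benjamini-Hochberg adjusted p under 0.05, knockdown minus control). Of these 17 were higher, 14 were lower and 26 did not pass, while of all tested genes 22.9% were higher and 31.3% lower. The median log2 fold change was -0.12 for the tested members and -0.09 for all tested genes. The split depends on the scaling, since TMM (trimmed mean of M-values) places the median of all genes at -0.09, upper-quartile scaling at -0.24, library totals at -0.28 and TMM over genes with a background share under 5% at -0.34. With upper-quartile scaling 6 members were higher and 19 lower, against 8.75% and 37.4% of tested genes. With library totals 4 were higher and 21 lower, against 5.16% and 39.7%, and with TMM over genes under a 5% background share 1 was higher and 23 lower, against 1.62% and 44.6%. With DESeq2, whose size factors place the median at -0.03, 17 were higher and 12 lower, against 25.9% and 26.2%.

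**Figure D3:**
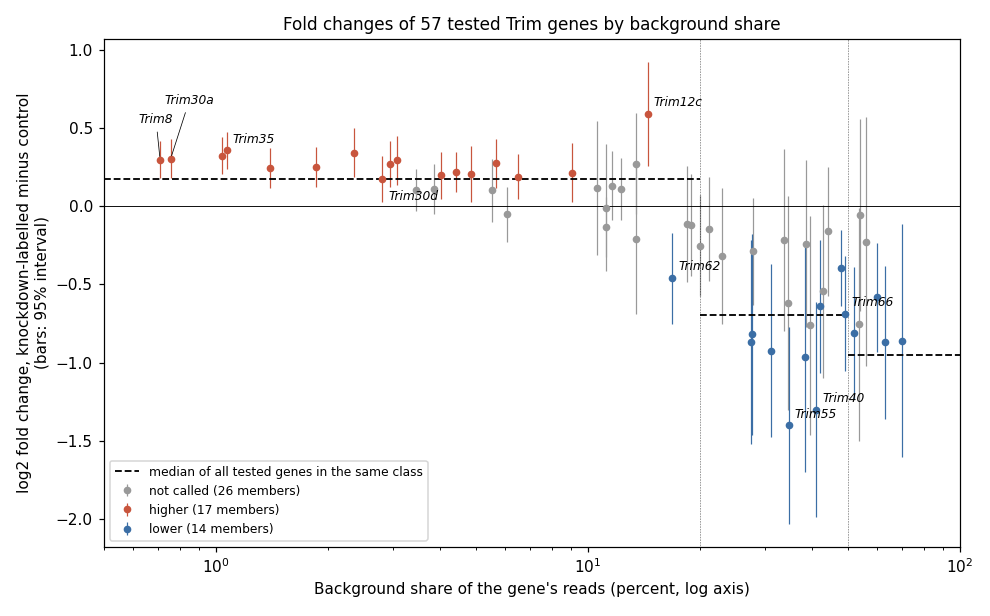
Log2 fold change of the 57 tested members (knockdown label minus control, TMM scaling, bars for 95% intervals) against the share of each gene's reads that background would give (percent, log axis), with red for higher, blue for lower and grey for members that did not pass the test. Dashed lines give the median of all tested genes of each class, at 0.17, -0.69 and -0.95, where the members' medians are 0.20, -0.62 and -0.76. Single members scatter about these lines. Trim12c lies furthest above and Trim62 furthest below the first. Around the second the members run from -1.40 (Trim55) to -0.14 (Trim36), and around the third from -0.87 to -0.05.

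The direction followed the background class, in members as in other genes. Of the 31 members well above background 17 were higher and 1 was lower, against 43.1% higher and 3.71% lower among 10234 tested genes of that class. Their median was 0.20, and that of the class was 0.17. Of the 19 members between, 0 were higher and 9 lower, against 0.197% and 55.4% of the class, with medians of -0.62 and -0.69. At an unadjusted p under 0.05 the count higher was also 0, and DESeq2 gave 0. Of the 18 members near background 7 were tested, of which 4 were lower and 0 higher, against 74.4% and 0% of the class, and edgeR at an unadjusted p under 0.05 and DESeq2 also gave 0 higher. The background density was 2.33 times higher in the control libraries, as given above, and its part in these differences was not tested beyond the subtraction described here. After background reads were subtracted from every gene's counts, 1 member was higher (Trim12c) and 3 were lower (Trim39, Trim55 and Trim62), against 0.756% and 11.1% of tested genes.

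The groups of libraries did not overlap for 8 members that were higher, all of them well above background, against 12.6% of all tested genes and 23.7% of those well above background. They were Trim8, Trim12c, Trim21, Trim25, Trim28, Trim35, Trim47 and Trim56. In the lower direction they did not overlap for 6 members, against 14.2% of tested genes, of which Trim54 and Trim61 were not tested. The others, Trim2, Trim40, Trim63 and Trim66, were 4 of the 19 members between, against 25.4% of that class.

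Among the most abundant members the differences were small and even. Levels for this comparison are CPM after TMM scaling. Trim35 was at 160, 142, 162, 150 and 162 CPM in control replicates 1 to 5 and at 192, 199, 210, 185 and 209 CPM in the replicates labelled knockdown. Every library labelled knockdown lay above every control library, with a log2 fold change of 0.36 (SE 0.06, edgeR adjusted p = 3.6e-06). Trim25 had 199, 194, 197, 196 and 226 CPM in the control libraries and 259, 252, 270, 232 and 254 CPM in the other group. Control replicate 5 stood apart from the other 4 and still lay below all libraries labelled knockdown (log2 fold change 0.33, SE 0.06, edgeR adjusted p = 1.4e-05). Trim8 had 195, 175, 195, 193 and 206 CPM against 225, 232, 249, 234 and 247 CPM, with no overlap (0.30, SE 0.06, edgeR adjusted p = 3.9e-05). Trim30a had 201, 183, 191, 180 and 244 CPM against 266, 243, 242, 234 and 252 CPM. Here control replicate 5 reached into the range of the other group (0.31, SE 0.06, edgeR adjusted p = 8.9e-05). These 4 were the members that passed as higher with library totals too, with log2 fold changes of 0.17, 0.14, 0.11 and 0.12 in the order given, but none of them passed after background subtraction.

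Set against the median of tested genes well above background, Trim35 was 0.18, Trim25 0.15, Trim30a 0.13 and Trim8 0.12 higher on the log2 scale. These distances were nearly the same under the 5 scalings, for Trim30a from 0.129 to 0.134. A change of scaling moves all genes by nearly the same amount, so this sameness was fixed in advance. Trim28 was at 113, 92.5, 112, 119 and 124 CPM against 133, 136, 131, 124 and 141 CPM, where control replicate 5 and knockdown-labelled replicate 4 nearly touch (0.24, SE 0.06, edgeR adjusted p = 0.00128). It stood 0.07 above the class median, and its sign turned with TMM over genes under a 5% background share (-0.001) and after background subtraction (-0.012). Trim47 was at 43.5, 35.5, 46.2, 39.8 and 45.4 CPM against 56.9, 48.8, 50.3, 50.6 and 61.2 CPM without overlap (0.34, SE 0.08, edgeR adjusted p = 3.1e-04), though 225 of its exon bases also belong to Trim65. Trim44, Trim21 and Trim41 were higher by 0.25, 0.27 and 0.30, and none of the 3 passed with upper-quartile scaling.

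Trim12c showed the largest rise of the tested members. Its control replicates 1 to 5 had 8.74, 8.31, 9.39, 5.9 and 10 CPM, and the replicates labelled knockdown had 17.4, 11, 10.3, 10.1 and 15.3 CPM. The groups did not overlap, though they nearly touched at 10 and 10.1 CPM, and replicates 1 and 5 of the group labelled knockdown stood well above its other 3. This gave a log2 fold change of 0.59, with SE 0.17 and a 95% interval of 0.26 to 0.92 (edgeR adjusted p = 0.00252). It lay 0.42 above the class median, higher than 99.7% of the genes well above background under TMM. It passed with upper-quartile scaling (0.45) and after background subtraction (0.60), but not with library totals (0.41, adjusted p = 0.0549) or with TMM over genes under a 5% background share (0.35, adjusted p = 0.107). Since 33.7% of its 50-base stretches occur in other transcripts, 24.2% in Trim5, the assignment of its reads is uncertain. Trim5 itself had 3.28, 6.23, 3.5, 4.79 and 3.93 CPM against 4.73, 3.62, 2.53, 3.72 and 3.75 CPM, and did not pass (-0.24, SE 0.27, edgeR adjusted p = 0.457).

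The other cluster members gave little difference between the groups. In the cluster 3 of the 9 tested members were higher and 0 lower, against 22.9% and 31.3% of all tested genes, and 0 were lower at an unadjusted p under 0.05 and by DESeq2 as well. All 3 were among the 5 cluster members well above background, a class in which 43.1% of tested genes were higher. The median log2 fold change of the 9 tested cluster members was -0.01. Trim30d, the third that passed, had 55, 54.9, 46.9, 48.3 and 55.2 CPM against 60.5, 61.5, 64, 55.2 and 52.5 CPM, with overlapping groups (0.17, SE 0.07, edgeR adjusted p = 0.0403). It lay on the class median, its sign turned with library totals (-0.01), with TMM over genes under a 5% background share (-0.07) and after background subtraction (-0.07), and it did not pass when control replicate 3 (0.15) or 4 (0.16) was left out, nor when knockdown-labelled replicate 2 (0.19) or 3 (0.16) was. Trim30c (0.12, SE 0.22), Trim34b (-0.01, SE 0.20), Trim30b (-0.16, SE 0.21), Trim34a (-0.21, SE 0.29) and Trim6 (-0.25, SE 0.16) did not pass. Trim6 passed as lower under library totals (-0.44) and under upper-quartile scaling (-0.40). The cluster's summed level was 300 ± 28.9 CPM in the control libraries and 355.2 ± 19 CPM in those labelled knockdown under TMM, and 314.6 ± 21.7 against 327.4 ± 21.5 CPM on library totals (SD, n = 5 each), with overlapping groups on both.

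**Figure D4:**
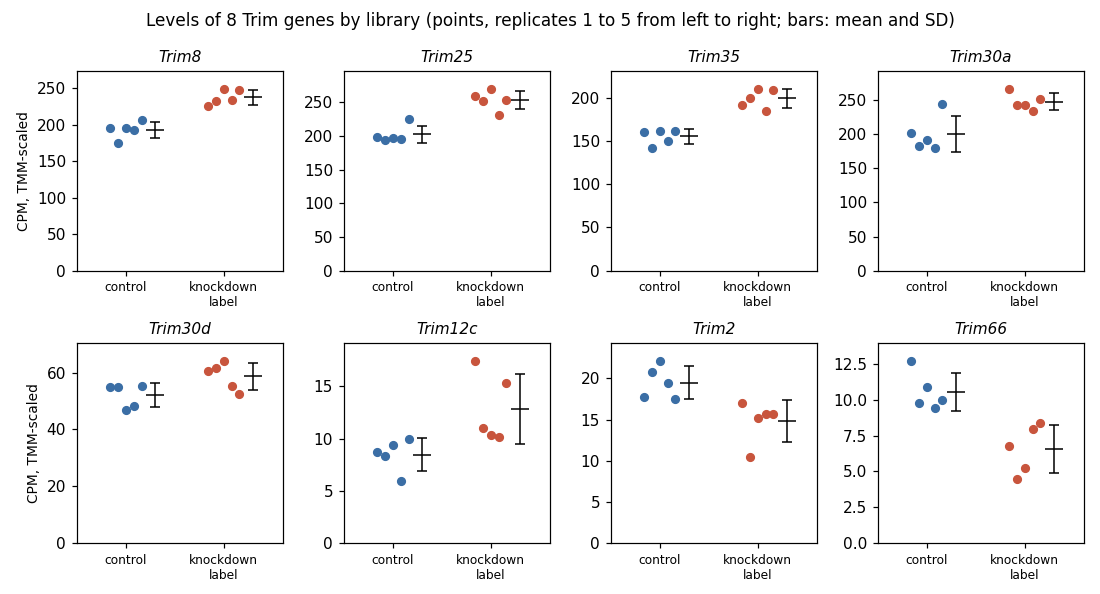
Level of 8 Trim genes in each library, in CPM after TMM scaling, with blue points for the 5 control libraries, red points for the 5 libraries labelled knockdown, and bars for the mean and SD of each group. Trim8, Trim25, Trim35 and Trim12c lie higher in every library labelled knockdown, Trim30a and Trim30d overlap between groups, and Trim2 and Trim66 lie lower in every library labelled knockdown.

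By role, 6 of the 10 signalling and antiviral regulators were higher and 0 lower (0 also at an unadjusted p under 0.05 and by DESeq2), with a median of 0.21, and 9 of the 10 were well above background, a class in which 43.1% of tested genes were higher and 3.71% lower. Besides Trim8 and Trim25 the 6 were Trim21, Trim23, Trim27 and Trim56. Trim23 passed narrowly (edgeR adjusted p = 0.049). With TMM over genes under a 5% background share the signs of Trim23 (-0.03), Trim27 (-0.045) and Trim56 (-0.023) turned. Trim14 (0.11, SE 0.08), Trim26 (0.10, SE 0.07), Trim65 (0.13, SE 0.11) and Trim38 (-0.62, SE 0.34) did not pass. Of the 11 other broadly expressed members, 10 of them in the same class, 6 were higher and 1 lower, with a median of 0.21. Of these Trim11 turned sign on the same scaling (-0.038). Both medians lay close to the 0.17 of all tested genes well above background. The TIF1 group was mixed, with Trim28 and Trim33 (0.19, SE 0.07, edgeR adjusted p = 0.022) higher, Trim66 lower and Trim24 not passing (0.11, SE 0.10). Trim33 did not pass without knockdown-labelled replicate 3 (0.18), and its sign turned with TMM over genes under a 5% background share (-0.06) and after background subtraction (-0.001). Both membrane-anchored members did not pass, Trim13 at -0.21 (SE 0.24) and Trim59 at 0.27 (SE 0.16). For that pair edgeR at an unadjusted p under 0.05 and DESeq2 gave 0 in each direction.

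Trim62, a ligase in the CARD9 pathway of antifungal signalling, was the only member well above background that was lower. It had 14.9, 14.8, 14.2, 14.9 and 12.5 CPM in the control libraries and 7.56, 10.2, 10.8, 13.4 and 9.71 CPM in the libraries labelled knockdown. Only knockdown-labelled replicate 4 reached into the control range. The log2 fold change was -0.46 (SE 0.15, edgeR adjusted p = 0.00685), which lay 0.63 under the class median, with 3.64% of the class lower still. It passed under each of the 5 scalings and after background subtraction (-0.62), but not within lane 8 alone (-0.23) or without the filter on low counts (-0.33).

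Among the weakly read members the largest fall was that of Trim55, at 2.55, 5.19, 4.42, 6.64 and 4.64 CPM in the control libraries against 1.89, 1.72, 0.844, 3.18 and 1.19 CPM. Control replicate 1 lay within the range of the other group (log2 fold change -1.40, SE 0.32, edgeR adjusted p = 2.4e-04), and the call remained after background subtraction (-1.90). Trim63 had 6.01, 6.23, 3.86, 4.06 and 5 CPM against 3.78, 1.72, 2.19, 3.18 and 2.38 CPM, without overlap (-0.92, SE 0.28, edgeR adjusted p = 0.00448), but did not pass after subtraction (-1.15, adjusted p = 0.0532). Both tested muscle members lay between, where 55.4% of tested genes were lower, and their median was -1.16. Trim54, not tested for its low counts, had 1.27, 1.45, 2.39, 0.922 and 0.893 CPM against 0, 0.517, 0.169, 0.354 and 0.511 CPM, also without overlap. Trim72 was not tested and overlapped.

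Trim66 had 12.7, 9.77, 10.9, 9.4 and 10 CPM against 6.81, 4.48, 5.23, 7.96 and 8.35 CPM, without overlap (-0.69, SE 0.18, edgeR adjusted p = 0.00169). Trim2 had 17.7, 20.8, 22.1, 19.4 and 17.5 CPM against 17, 10.5, 15.2, 15.7 and 15.7 CPM (-0.39, SE 0.12, edgeR adjusted p = 0.00548). Its groups did not overlap, but knockdown-labelled replicate 2 was far below the rest, and without it Trim2 did not pass (-0.26, adjusted p = 0.0713). Neither gene passed after background subtraction, at -0.63 and -0.10. Trim40, a gut-enriched ligase, had 3.64, 4.78, 3.13, 3.13 and 2.86 CPM against 1.32, 0.517, 1.35, 2.65 and 1.19 CPM, without overlap (-1.30, SE 0.35, edgeR adjusted p = 0.00149).

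Of the COS-box genes Trim67 (-0.81, SE 0.21, edgeR adjusted p = 0.00129) and Trim9 (-0.58, SE 0.18, edgeR adjusted p = 0.0045) were lower, and Trim36 (-0.14, SE 0.17) and Trim46 (-0.54, SE 0.28) did not pass. The group's median was -0.56. Of the NHL-repeat genes Trim71 (-0.87, SE 0.24, edgeR adjusted p = 0.00259) was lower beside Trim2, and Trim3 (-0.05, SE 0.09) and Trim32 (0.10, SE 0.10) did not pass. Of the 19 remaining members 11 were tested, of which 6 were lower and 0 higher (0 also at an unadjusted p under 0.05 and by DESeq2), with a median of -0.76. In the classes they belong to, 55.4% (between) and 74.4% (near background) of tested genes were lower. Trim69 among them (-0.87, SE 0.33, edgeR adjusted p = 0.0211) did not pass without control replicate 2 (-0.48), nor without knockdown-labelled replicate 2, 3 or 5.

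Summed over the family and set on library totals, the groups differed by less than their SDs, with 2051 ± 14.6 CPM in the control libraries and 2049 ± 43.5 in those labelled knockdown (SD, n = 5 each). On TMM-scaled levels the sums were 1954 ± 83.7 and 2224 ± 49.8 CPM (SD, n = 5 each), without overlap. The sum over the members between was 126.2 ± 14.2 CPM in the control libraries and 90.6 ± 10.7 CPM in those labelled knockdown, and on library totals 133.2 ± 20.6 and 83.8 ± 12.5 CPM, with no overlap on either scale.

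Lane 7 of the sequencer held replicates 1 to 3 of both groups, and lane 8 held replicates 4 and 5. Within lane 7 (3 against 3) 15 members were higher and 14 lower, against 20.7% and 28.9% of tested genes. Within lane 8 (2 against 2) 0 passed in either direction by edgeR, against 0.328% and 0.749%. At an unadjusted p under 0.05 there were 6 higher and 2 lower. The share of all tested genes at that threshold was not computed, so these 2 counts cannot be read as a result about the members. No other tool was run within lanes. The background density was 2.65 times higher in the control libraries of lane 7 and 1.93 times higher in those of lane 8, where exact permutation tests cannot go below 0.1 and 0.333.

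Genes that work with TRIM proteins but are not members were tested in the same fit. Of the 6 TRIM genes with other symbols, Pml, the organiser of nuclear bodies, was higher (0.31, SE 0.07, edgeR adjusted p = 4.1e-04). Rnf207 (-1.41, SE 0.23), Cmya5 (-1.10, SE 0.20) and Mefv (-1.54, SE 0.41), all with background shares over 40%, were lower. Of all tested genes 31.3% were lower, with 55.4% of those between (the class of Rnf207 and Mefv) and 74.4% of those near background (Cmya5). Of 14 E2 ubiquitin-conjugating enzymes, which hand ubiquitin to the ligase, 13 were tested, 6 were higher and 0 lower, with a median of 0.18. The smallest p-values were those of Ube2k (0.38, SE 0.07), Ube2d3 (0.28, SE 0.06) and Ube2l3 (0.23, SE 0.07). Of 19 nucleic acid sensors and signalling partners 10 were higher and 0 lower, with a median of 0.23, led by Irf7 (0.39, SE 0.07), the transcription factor of type I interferon genes, and by the kinases Tbk1 (0.31, SE 0.06) and Ikbke (0.30, SE 0.06). Ddx58, the RNA sensor that Trim25 acts on, did not pass (0.28, SE 0.12, edgeR adjusted p = 0.0546). Of 14 partners of Trim28 in heterochromatin 10 were higher and 0 lower, with a median of 0.21, led by Morc3 (0.36, SE 0.06), Hdac2 (0.38, SE 0.07) and Cbx1 (0.35, SE 0.07). In the last 3 lists 0 were lower at an unadjusted p under 0.05 and by DESeq2 as well. These counts too depend on the scaling: with library totals 1 E2 enzyme was higher and 2 lower, 2 sensing genes were higher and 3 Trim28 partners. The medians can be read against the 0.17 of all tested genes well above background, of which 43.1% were higher.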

How the data were processed

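Per the labels' protocols, total RNA was turned into libraries with a strand-marking, random-primed kit. Per the submitters' processing notes, bcl2fastq made the reads and the build was GRCm38 (mm10). The authors deposited read counts per gene as whole numbers, separately for each library. Which aligner, counting program, strand setting and annotation were used is not given in the labels, and reads of overlapping genes could not be told apart. The 92 spike-in entries (0 to 2 reads per library) were left out. GENCODE M21 gave symbols, exon lengths and positions (55230 of 55471 genes matched, and the rest held 0.0107% of reads), and RefSeq gave the promoters.

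Counts were filtered with filterByExpr, scaled with TMM and tested with edgeR 4.0.16 in R 4.3.3 (robust quasi-likelihood fit, group as the only term, adjusted p under 0.05). Levels across genes are per kilobase on library totals. The alternatives were DESeq2 1.42.0, limma-voom (limma 3.58.1), other scalings and filters, background subtraction, lane, the replicate block, and each library left out. Depths of 4321316 to 6636082 reads limit the precision for members under about 5 CPM. Replicate libraries differed by more than counting noise (ratio of chi-square to its degrees of freedom, 1.76 to 4.48). The test was also run on simulated counts. Python 3.11.15 and matplotlib 3.10.9 drew the figures.

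The members and lists were chosen with earlier results of these data known. Genes named were the target, all cluster members, the 10 highest by RPKM, the 12 smallest p-values, 3 on each side of both class thresholds, lists of 5 or fewer, up to 3 per other list, and members with a library far from its group. Others were named after their values were seen.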

Additional observations from a re-analysis of the deposited data

Results flagged for a closer look

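In each group of 5 libraries the highest or lowest value (for genes, the TMM-scaled level) was compared with its nearest neighbour, relative to the group's range (Dixon's ratio above 0.71). Of 248 groups 13 stood out, and chance alone gives about 1 in 20. The 248 were 2 for each of the 68 members, the 53 listed genes that are no members, the target, the background density and the family sum. In the control group, replicate 5 had 226 CPM for Trim25, above the 194 to 199 CPM of the others, and 7.5 CPM for Trim36, below their 10.2 to 11 CPM. Control replicate 2, the library with the highest background density, had 7.48 CPM for Trim69 (others 1.96 to 3.46), 4.16 CPM for Trim43b (others 1.07 to 1.84) and 0.416 CPM for Trim12a (others 0). In the group labelled knockdown, replicate 2 had 28.9 CPM for Trim65, above the 19.2 to 21 CPM of the others, and 10.5 CPM for Trim2, below their 15.2 to 17 CPM. Among genes that are no members, control replicate 2 had 59 CPM for the histone methyltransferase gene Setdb1, below the 71.8 to 76.3 CPM of the others. In the group labelled knockdown, replicate 1 had 753 CPM for the chromatin remodeller gene Chd4 (others 822 to 835), 143 CPM for the RNA sensor gene Ifih1 (others 120 to 122) and 3.78 CPM for Mefv (others 0.517 to 1.19). Replicate 3 of that group had 111 CPM for the heterochromatin gene Cbx5 (others 92.4 to 96.2) and 56.2 CPM for Mavs, the mitochondrial adaptor of RNA sensing (others 47.4 to 49.5).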

How the results depend on the processing

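Of the members 17 were higher and 14 lower. In the order higher then lower, library totals gave 4 and 21, upper-quartile scaling 6 and 19, background subtraction 1 and 3, TMM over genes under a 5% background share 1 and 23, a filter of 5 CPM in 5 libraries 7 and 8 (of 42 tested), and lane 8 alone 0 and 0. Leaving out 1 library gave 14 to 18 and 11 to 17. In the cluster 3 were higher and 0 lower, against 1 and 1 with library totals, 2 and 1 with upper-quartile scaling, 0 and 1 with TMM over genes under a 5% share, 1 and 0 after subtraction, 0 and 0 in lane 8, and 2 to 3 and 0 with 1 library left out. Of all genes 4418 were higher and 6033 lower. Upper-quartile scaling gave 1685 higher, library totals 994, TMM over genes under a 5% share 312, subtraction 145 higher and 2129 lower, the stricter filter 2057 and 2239, and lane 8 alone 67 and 153. Without 1 library the counts were 4032 to 5015 and 4928 to 6967. Among the members called higher, signs turned for Trim28 (-0.001), Trim33 (-0.056) and Trim30d (-0.071) with TMM over genes under a 5% share. On that scaling they also turned for Trim56 (-0.023), Trim23 (-0.030), Trim11 (-0.038) and Trim27 (-0.045). With library totals the sign turned for Trim30d (-0.014). After subtraction signs turned for Trim33 (-0.001), Trim28 (-0.012) and Trim30d (-0.069). That last list covers only the members looked at singly, without Trim11, Trim23, Trim27, Trim37 and Trim56. The target 3222401L13Rik, which did not pass, went from -0.171 to 0.320 after subtraction. With 1 library left out, Trim24 passed as higher without control replicate 5 (0.24), and without knockdown-labelled replicate 1 so did Trim59 (0.39), while Trim46 passed as lower (-0.71). With keratin genes as background 20 members were well above it and 34 near it, and with vomeronasal receptor genes 4 were near it. The density ratio was 2.65 within lane 7 and 1.93 within lane 8, which hold too few libraries to pass. With the replicate block 16 members were higher and 14 lower, 3 and 0 in the cluster, and 4405 and 5949 of all genes. It changed no sign of a called member and no call among the 41 members looked at singly. Correlations between the groups were taken on log levels after each gene's mean in its own group was removed. On these deviations same-numbered libraries correlated from -0.213 to 0.16. Of 10 libraries 2 correlated best with their own number, so the numbers were not taken as pairs. Depth and background limit the precision for members under 5 CPM. The cause was not tested for any of these changes.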
